A study of Arabidopsis thaliana with 8 samples.

Results

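The 5 phytochrome genes of Arabidopsis thaliana, PHYA to PHYE, and 3 genes that act in nuclear import of phytochrome A, FHL, FHY3 and FAR1, were followed in wild type seedlings and in seedlings labelled voz1 voz2. The genes were taken by locus from the names of the array probes. All 8 were present with 1 probe each, among 25665 loci and 37478 non-control probes, and all 8 were among the 24599 features tested. The study compared whole seedlings of wild type Col-0 with the voz1 voz2 double mutant in the same accession, 4 one-colour (Cy3) Agilent arrays of each. All seedlings were 14 days old, untreated, and grown at 22 °C in a 16 h light, 8 h dark cycle on agar with Murashige and Skoog medium at 0.5 strength. The alleles, the hour of harvest and whether replicates were grown separately are not given in the labels, so the spread behind every p-value is that of the samples as they are and could be technical.

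Phytochromes are photoreceptors that switch between a red-absorbing and a far-red-absorbing form. Phytochrome A accumulates in the dark, is broken down in light and mediates responses to far-red light, whereas phytochromes B to E are light-stable and B dominates responses to red light and shade. Light-activated phytochrome A is carried into the nucleus by the small proteins FHY1 and FHL, and the transposase-derived transcription factors FHY3 and FAR1 activate the FHY1 and FHL genes. VOZ1 and VOZ2 are plant transcription factors with a zinc finger, which bind phytochrome B and act in flowering. FHY1 was not analysed here.

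Levels are log2 processed signals minus the 75th percentile of the array, so 0 is a probe as bright as that percentile, and levels of different probes are not compared. The genotype labels were checked on the targeted genes. VOZ2 fell by 5.74 (SE 0.27, limma adjusted p = 0.00010) and VOZ1 fell by 1.5 (SE 0.13, adjusted p = 0.0015), and neither gene's genotypes overlapped. VOZ1 stayed well above background on all 4 mutant arrays, with processed signals of 571 to 1204. The arrays lay on 2 slides, with replicates 1 and 3 of both genotypes on slide 1 and replicates 2 and 4 on slide 2, and the share of probes well above background ranged from 60.4% to 70.3% over the arrays. All 5 shoot markers and all 6 root markers were well above background on every array, and between 2 and 4 of the 4 flower markers. The mean of the root markers lay between -2.40 and -0.82 in wild type and between -0.93 and -0.061 in the mutant. For 5 of the 6 genes the mean was higher in the mutant than in wild type, against 47.2% of all features. Of the 6 genes 1, WOX5 (named after its value was seen), rose (limma adjusted p = 0.045). That call was lost whichever array was left out and with median scaling, normexp or the deposited values. WOX5 was dim, with processed signals of 13.6 to 34.9 in wild type and 27.7 to 75.6 in the mutant. The mean of the 3 shoot markers with a usable spot on every array lay between 2.69 and 2.81 in wild type and between 2.75 and 2.99 in the mutant, and that of the flower markers between -3.72 and -2.54 and between -4.51 and -3.29, with no gene of either list past the threshold. For the shoot marker RBCS1A that test had 1 usable wild type array and 3 mutant arrays, the other spots being flagged. Of all 5 shoot markers 2 had a higher mean in the mutant, against 47.2% of all features, and their median difference was -0.012. RBCS1A and CA1, which are not in the mean of 3, had differences of -0.62 and -0.012. The part of these marker values in the results was not tested, and in whole seedlings fewer cells of a type and less RNA per cell cannot be told apart.

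None of the 8 genes passed the threshold of 0.05 in the comparison of voz1 voz2 with wild type, in which 4.44% of all features were called (2.72% higher and 1.72% lower in the mutant). Of the 8, 7 had lower means in the mutant, the exception being FHL. The estimates ran from -0.80 for PHYA to 0.46 for FHL with a median of -0.27, against a median of -0.030 over all features, of which 47.2% had values above 0. In size the genes were ordinary, with a median absolute difference of 0.31 against 0.29 over all features. At an unadjusted p under 0.05 there were 3 of the 8 (PHYA, FHL and FHY3), against 23.6% of all features. PHYA was the 1 gene of the 8 whose genotypes did not overlap, against 16.3% of all features (8.46% higher and 7.85% lower in the mutant). Arrays of the same replicate number deviated together, but so did arrays that shared only a slide, and the labels state no pairing. The comparison was therefore also made with the replicate number as a block and, separately, with slide as a block. With the replicate number 2 of the 8 fell, PHYA and FHY3, against 13.5% of all features called (6.74% higher and 6.74% lower). With slide 2 fell, PHYD and FHY3, against 16.1% called (8.13% higher and 7.95% lower). With normexp, another background correction, none of the 8 passed and 0.382% of all features did, in the deposited table none and 0.285%, and with outlier-flagged spots kept none and 4.41%. The 95% interval, taken gene by gene, lay inside a 2-fold change either way for 7 of the 8 genes, all but PHYA.

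**Figure D1:**
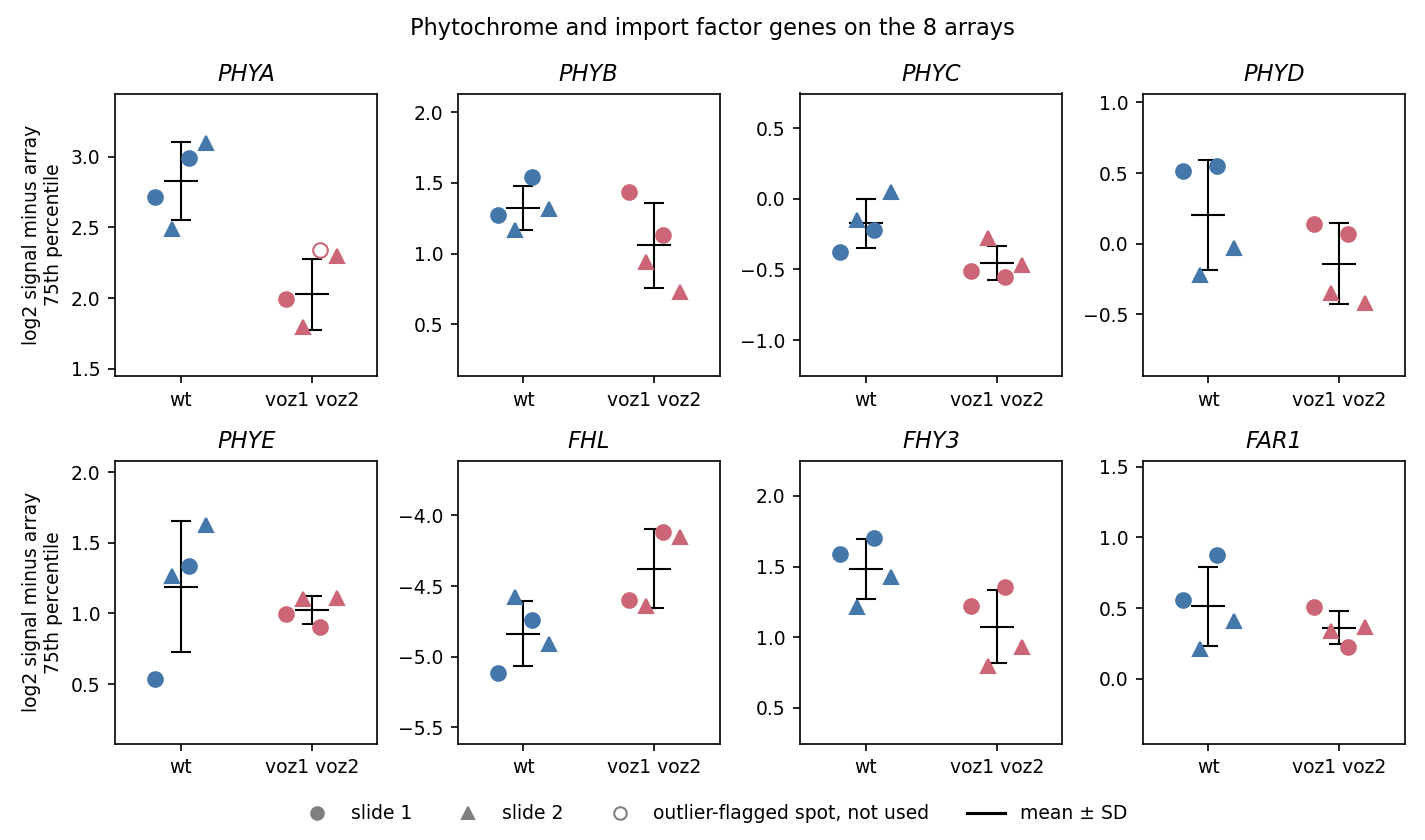
Level of each gene on each array (log2 processed signal minus the 75th percentile of the array; every panel spans the same range), by genotype, with slide 1 as circles, slide 2 as triangles and the mean ± SD in black. The filled PHYA points of the mutant, 1.79 to 2.29, lie below those of wild type, 2.49 to 3.1, and the open point is the outlier-flagged spot that was not used; in the other panels the genotypes overlap.

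PHYA (AT1G09570), the far-red photoreceptor gene, had the smallest p of the 8. Its levels in wild type were 2.72, 2.49, 2.99 and 3.1 in replicates 1 to 4, from processed signals between 5754 and 12435. In the mutant they were 1.99, 1.79 and 2.29 in replicates 1, 2 and 4. The spot of mutant replicate 3 carried a non-uniformity flag and was left out. Every mutant level that was used lay below every wild type level. The means were 2.83 ± 0.28 (SD, n = 4) and 2.03 ± 0.25 (SD, n = 3), a difference of -0.80 (SE 0.21, 95% interval -1.29 to -0.31), or 1.74-fold less signal in the mutant. The limma adjusted p was 0.076, so PHYA did not pass. The flagged spot, at 2.34, also lay below the lowest wild type level, and with it the difference was -0.72 (adjusted p = 0.073). The difference was -0.86 on slide 1 and -0.75 on slide 2. With the replicate number as a block PHYA fell by 0.74 (SE 0.12, adjusted p = 0.035), a fit in which wild type replicate 3 has no partner, and with the flagged spot kept it fell by 0.72 (adjusted p = 0.021). With slide as a block the adjusted p was 0.051. With 1 array left out the difference ran from -0.93 without mutant replicate 4 to -0.68 without mutant replicate 2 (limma adjusted p = 0.094 and 0.21). Without wild type replicate 4, where PHYA was highest, it was -0.71 (adjusted p = 0.18). That array also had the lowest mean of the root markers, -2.40, and a link between the 2 was not tested.

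PHYB (AT2G18790), the gene of the main light-stable phytochrome, whose protein binds VOZ1 and VOZ2, did not pass. Its levels in wild type were 1.28, 1.17, 1.54 and 1.31, and in the mutant 1.44, 0.94, 1.13 and 0.73. The 3 lowest levels were mutant ones, while mutant replicate 1 was higher than 3 of the 4 wild type arrays. The difference of the means, 1.32 ± 0.16 and 1.06 ± 0.30 (SD, n = 4 each), was -0.27 (SE 0.18, limma adjusted p = 0.41). Its 95% interval, -0.68 to 0.15, corresponds to a signal in the mutant between 0.625 and 1.11 times that of wild type.

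PHYD (AT4G16250), the closest relative of PHYB and partly redundant with it in shade responses, followed the slide more than the genotype. On slide 1 the wild type levels were 0.52 and 0.55 and the mutant levels 0.14 and 0.071. On slide 2 they were -0.22 and -0.027 in wild type and -0.35 and -0.42 in the mutant. Within each slide the mutant was lower, while over both slides the genotypes overlapped. The difference was -0.34 (SE 0.23, limma adjusted p = 0.41), and with slide as a block PHYD fell by 0.34 (SE 0.093, adjusted p = 0.048). The local background of the spot of mutant replicate 4 was 1150, against 45.5 to 55 on 61 of the 64 spots of these genes. Without the 4 spots of these genes that carry a background outlier flag, this one among them, the PHYD difference was -0.25 (adjusted p = 0.60), and with normexp, which subtracts the local background, it was -0.56 (adjusted p = 0.68). The sequences of the probes were not used here, so signal shared between PHYB and PHYD, which are similar genes, was not checked.

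PHYC (AT5G35840), whose protein works as a partner of phytochrome B, had levels of -0.38, -0.15, -0.22 and 0.046 in wild type and -0.51, -0.28, -0.56 and -0.47 in the mutant. Only mutant replicate 2 reached the wild type range. The difference was -0.28 (SE 0.14, 95% interval -0.60 to 0.045, limma adjusted p = 0.28), with -0.23 on slide 1 and -0.32 on slide 2. PHYC varied least of the 8, its residual SD lying at percentile 10.2 of all features.

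PHYE (AT4G18130), a light-stable phytochrome gene whose product adds to phytochrome B in shade and flowering responses, had levels of 0.53, 1.26, 1.33 and 1.62 in wild type and 0.99, 1.10, 0.90 and 1.11 in the mutant. All 4 mutant levels lay inside the wild type range, which wild type replicate 1 widened at its lower end. The SD was 0.46 in wild type and 0.098 in the mutant. The difference was -0.16 (SE 0.23, 95% interval -0.68 to 0.36, limma adjusted p = 0.71). Slide 1 gave 0.014 and slide 2 gave -0.34. Leaving out wild type replicate 1 took the difference to -0.38 (adjusted p = 0.22).

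**Figure D2:**
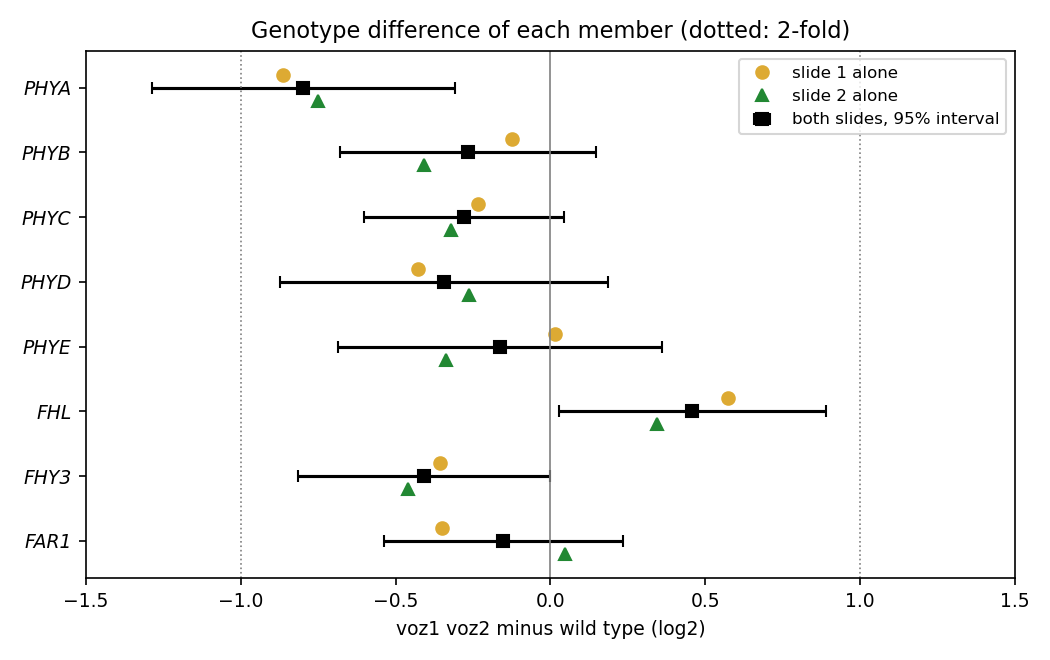
Difference of the means, voz1 voz2 minus wild type (log2), for each gene, with the 95% interval from limma over both slides (squares) and the difference within slide 1 (circles) and slide 2 (triangles); dotted lines mark a 2-fold change. PHYA lies farthest from 0 at -0.80, FHL is the one gene above 0, and PHYE and FAR1 have slide values on both sides of 0.

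FHY3 (AT3G22170), a transcription factor gene needed for far-red responses, had levels of 1.59, 1.22, 1.70 and 1.42 in wild type and 1.22, 0.79, 1.35 and 0.93 in the mutant. In each pair of the same replicate number the mutant was lower, while wild type replicate 2 fell among the mutant levels. The means were 1.48 ± 0.21 and 1.07 ± 0.26 (SD, n = 4 each), a difference of -0.41 (SE 0.18, 95% interval -0.81 to -0.0010, limma adjusted p = 0.21). FHY3 passed with either block and fell by 0.41, with an SE of 0.092 (adjusted p = 0.048) for the replicate number and 0.098 (adjusted p = 0.037) for slide. The values within slides were -0.36 and -0.46. The spot of mutant replicate 3 had a local background of 430, and without the background-flagged spots the difference was -0.50 (adjusted p = 0.16).

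FAR1 (AT4G15090), the partly redundant relative of FHY3, did not pass in any of the fits. Its levels were 0.56, 0.21, 0.87 and 0.41 in wild type and 0.51, 0.34, 0.22 and 0.37 in the mutant, where all 4 lay inside the wild type range. The difference was -0.15 (SE 0.17, 95% interval -0.54 to 0.23, limma adjusted p = 0.63), with -0.35 on slide 1 and 0.047 on slide 2.

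FHL (AT5G02200), which carries phytochrome A into the nucleus and is a direct target of FHY3 and FAR1, was the one gene of the 8 with a higher mean in the mutant. It was dim, with processed signals of 36.6, 92.8, 27.0 and 45.7 in wild type and 46.6, 96.9, 74.4 and 123 in the mutant, though well above background on all 8 arrays. On the scaled log2 axis these were -5.12, -4.57, -4.74 and -4.91 against -4.60, -4.64, -4.11 and -4.15. Mutant replicates 3 and 4 lay above every wild type array, and replicates 1 and 2 just under wild type replicate 2. The difference was 0.46 (SE 0.19, 95% interval 0.028 to 0.89, limma adjusted p = 0.19), with 0.57 on slide 1 and 0.34 on slide 2. With normexp, which adds an offset of 50 to such low signals, it was 0.044 (adjusted p = 0.999999).

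Whether related genes changed unequally was tested on their difference within each array, which scaling by 1 constant per array leaves as it is. There were 3 such pairs, PHYB with PHYD, FHY3 with FAR1 and PHYA with PHYB, and none passed a two-sided exact permutation test, in which the smallest p possible was 0.029. PHYB minus PHYD moved by 0.078 from wild type to mutant (exact p = 0.63, and 0.63 adjusted over the 3 pairs). FHY3 minus FAR1 was 1.03, 1.01, 0.83 and 1.02 on the wild type arrays and 0.71, 0.45, 1.13 and 0.56 on the mutant arrays, lower in 3 of the 4 mutant arrays. It moved by -0.26 (exact p = 0.17, and 0.26 adjusted). Without mutant replicate 3, whose FHY3 spot had the raised local background, it moved by -0.39 (exact p = 0.029, and 0.086 adjusted over the 3 pairs), and with normexp by -0.32 (exact p = 0.029, and 0.086 adjusted). PHYA minus PHYB was 1.44, 1.32, 1.45 and 1.79 on the wild type arrays and 0.56, 0.85 and 1.57 on the 3 usable mutant arrays, and moved by -0.51 (exact p = 0.17, and 0.26 adjusted). It was lower in the mutant in all 3 pairs of the same replicate number, by -0.52 on average (exact paired p = 0.25, the smallest that 3 pairs allow). Without mutant replicate 1 that value was -0.29 and without mutant replicate 4 it was -0.80 (exact p = 0.47 and 0.067).

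The slides set some of these genes apart as much as the genotypes did. In the fit with both terms PHYD was lower on slide 2 by 0.58 (slide 2 minus slide 1 -0.58, SE 0.093, limma adjusted p = 0.0060) and FHY3 by 0.37 (-0.37, SE 0.098, adjusted p = 0.030). These were 2 of the 8 genes, against 28.3% of all features that differed between slides (14.4% higher and 14.0% lower on slide 2). PHYB and FAR1 had -0.31 and -0.21 and PHYC and PHYE 0.20 and 0.33, none past the threshold. PHYA was at -0.015 (SE 0.21), not past the threshold, and a slide difference in either direction remains possible. The scan date in the file headers was the same within each slide and differed between the slides. The labels do not say whether the replicates on the slides were grown or extracted apart, so slide, scan and any such difference cannot be told apart.

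**Figure D3:**
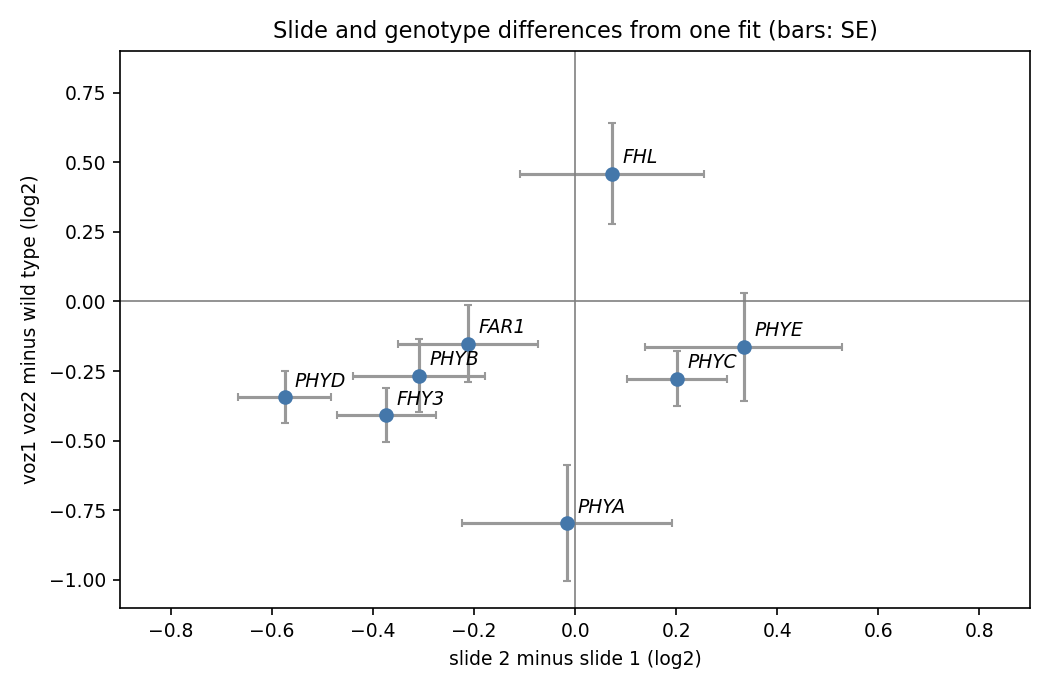
Slide 2 minus slide 1 (horizontal, log2) against voz1 voz2 minus wild type (vertical, log2) from one limma fit with both terms; bars are 1 SE each way. PHYD and FHY3 lie left of 0 at -0.58 and -0.37, PHYC and PHYE right of it, and PHYA lies near 0 on the slide axis and lowest on the genotype axis.

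The profile of PHYA was set against 20694 other loci measured on all arrays, by the mean absolute difference of levels over its 7 usable arrays after each gene's mean was subtracted. The 3 most alike were AT5G18630, AT1G03610 and AT1G24160, at 0.046, 0.056 and 0.062, against a median of 0.46 over all loci. Their differences between genotypes were -0.80, -0.82 and -0.77, values that the choice of these loci by their likeness to PHYA fixes, so no test is given.

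Other genes around the phytochromes were described by lists. Of the 12 FRS genes, the FAR1-related family of FHY3 and FAR1, 11 were tested. None rose or fell in any of the fits with or without a block, against 4.44% of all features called without one. At an unadjusted p under 0.05 there was 1, against 23.6% of all features. The values of the 11 ran from -0.58 to 0.030, with a median of -0.057. Of the 11, 1 was above 0, against 47.2% of all features. Both values moved with single arrays, the median from -0.21 without wild type replicate 1 to -0.034 without wild type replicate 4, and the count above 0 to 4 without wild type replicate 4 or mutant replicate 3. With normexp 2 were above 0, and with median scaling or in the deposited table none. FRS4 had -0.37 (adjusted p = 0.20), FRS7 -0.22 (0.37) and FRS12 -0.25 (0.39).

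Among 9 tested genes that FHY3 and FAR1 are known to bind or activate, 1 rose and none fell, against 2.72% and 1.72% of all features. The median was 0.025 (-0.091 with median scaling, -0.034 with normexp and -0.31 in the deposited table). With 1 array left out that median ran from -0.15 without mutant replicate 2 to 0.19 without mutant replicate 1, so it has no settled sign. ELF4, a component of the evening complex of the clock, had -1.84 ± 0.56 in wild type and 0.11 ± 0.30 in the mutant (SD, n = 4 each). It rose by 1.95 (SE 0.29, limma adjusted p = 0.011), or 3.86-fold. It passed whichever array was left out, but not in the deposited table (1.61, adjusted p = 0.22), and within slides it had 1.94 and 1.96. MIPS1, the inositol phosphate synthase gene, had 0.90 (adjusted p = 0.11) and the morning clock gene CCA1 -0.66 (adjusted p = 0.12).

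The 5 genes of chromophore synthesis, which make the bilin that phytochromes need, had 1 call, a lower one, against 1.72% of all features called lower. HO4, a minor heme oxygenase gene, fell by 1.57 (SE 0.35, limma adjusted p = 0.045), but its processed signal was 10.6 to 27.9 in wild type and 2.72 to 14.8 in the mutant, where 2 of 4 arrays had it well above background. With normexp it had -0.17. The call held when mutant replicate 3 was left out. It was lost on leaving out each of the other 7 arrays (adjusted p 0.052 to 0.099), with quantile scaling, without the filter and in the deposited table. HO3 had -2.13 (adjusted p = 0.19) and fell with the replicate number (0.035) or slide (0.035) as a block. Its signal ran from 10.3 to 324 in wild type and from 8.87 to 107 in the mutant, where 2 of the 4 arrays had it well above background, so the size of the difference is uncertain. Its other probe was not well above background on any array. The bilin synthase gene HY2 had 0.49 (adjusted p = 0.40).

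Of 9 tested genes of phytochrome A signalling 0 passed in limma, against 4.44% of all features. At an unadjusted p under 0.05 there was 1, against 23.6% of all features. The median was -0.20 (-0.093 when wild type replicate 3 was left out, and -0.12 when mutant replicate 2 was). SPA2, a partner of the COP1 ubiquitin ligase, had -0.40 (adjusted p = 0.16) and fell with slide as a block (0.047). SPA1 had -0.22 (adjusted p = 0.31) and TZP -0.31 (adjusted p = 0.34).

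Of 11 genes of phytochrome-binding proteins 1 rose and none fell, against 2.72% and 1.72% of all features. NDPK2, a nucleoside diphosphate kinase gene, had 3.23 ± 0.21 in wild type and 3.90 ± 0.13 in the mutant (SD, n = 4 each) and rose by 0.67 (SE 0.15, limma adjusted p = 0.046). The call held when wild type replicate 3 was left out. It was lost on leaving out each of the other 7 arrays (adjusted p 0.065 to 0.127), and under median scaling, under normexp, in the deposited table and without the filter. PKS4, a phytochrome kinase substrate gene that acts in phototropism, had -0.83 (adjusted p = 0.055) and fell with the replicate number (0.037) or slide (0.031) as a block and without wild type replicate 2 (0.046). PKS1 had 0.46 (adjusted p = 0.087) and rose with slide as a block (0.037). With slide as a block 2 genes of the list rose and 2 fell, against 8.13% and 7.95% of all features, the other two being NDPK2 and PAPP5, a phosphatase gene chosen after its value was seen.

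**Figure D4:**
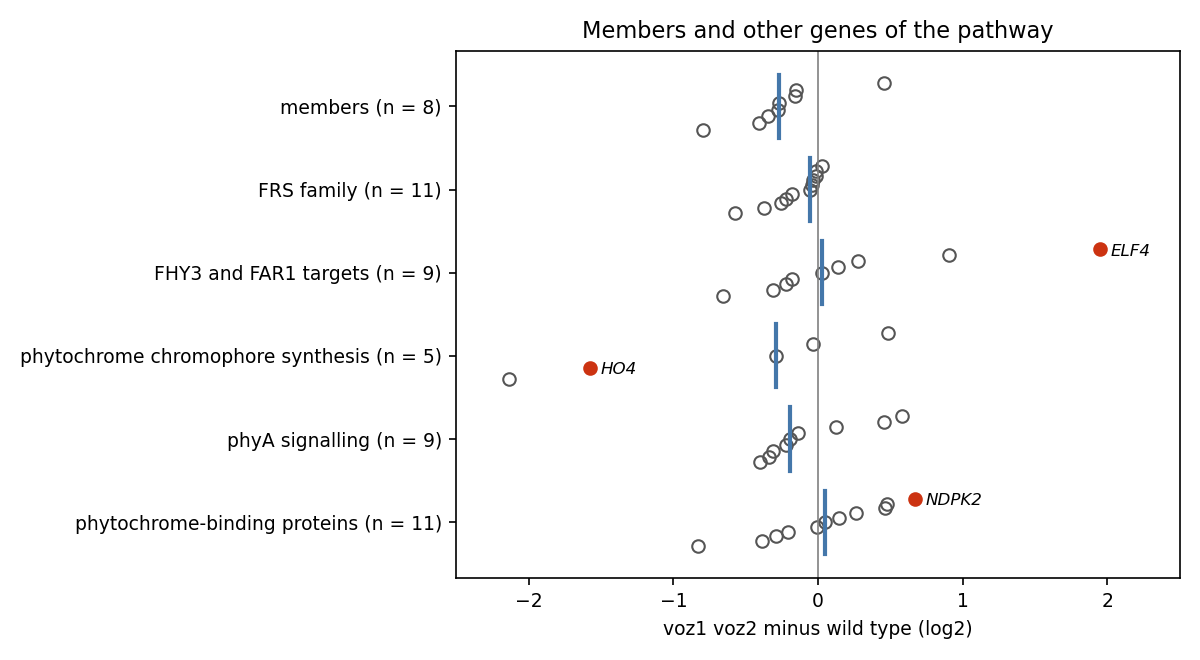
Difference of the means, voz1 voz2 minus wild type (log2), of the 8 genes and of every tested gene of 5 other lists; filled points passed the limma threshold, and blue bars are list medians. ELF4 stands at 1.95, HO4 at -1.57 and NDPK2 at 0.67, while the 8 genes lie between -0.80 and 0.46 with none filled.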

How the data were processed

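The authors extracted spot intensity with Feature Extraction 9.1.3.1, as named in the submitters' processing notes. The intensity used, the processed signal, has its background subtracted, per the file headers. The authors' deposited value table is on a natural log scale. Set against the scanner values, each value is the logged processed signal less 6.42 on wild type arrays and less 6.91 on mutant arrays, and it was used only as an alternative.

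Outlier-flagged spots (9 to 111 per array) were left out, log2 signals averaged per probe and scaled to the 75th percentile of each array. A probe was tested if 4 or more of the 8 arrays had it well above background, the one with the highest mean for each locus, with limma 3.58.1 (lmFit, eBayes) in R 4.3.3 and Benjamini-Hochberg adjustment over all 24599 features at 0.05. The fit was tested on simulated data with independent noise on each array, so that test does not cover the slide differences of the real arrays. Normexp used the median spot signal, since the files hold no mean signal. The number of arrays limits the precision, and no spot was saturated. Within genotypes arrays correlated at 0.96 to 0.99. Deviations of same-numbered arrays correlated at 0.32 to 0.61 and those of arrays sharing only a slide at 0.27 to 0.54. These ranges overlap, so the same number shows no clear pairing beyond the shared slide. Symbols are those of the gene lists, and a RefSeq table (TAIR10.1) gave the names of the loci most like PHYA. The coordinates of that table were not used as no build is named for the array.

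The genes and lists were chosen with earlier results of these data known. Named from each list are up to 3 genes with the smallest p and all past the threshold. The likeness measure was centred over the 7 arrays with a PHYA value.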

Additional observations from a re-analysis of the deposited data

Results flagged for a closer look

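Of 54 groups of 4 arrays searched for a sample far from the others, 2 held one. Chance flags about 1 in 20 groups. The difference FHY3 minus FAR1 was 0.83 on wild type replicate 3, against 1.01 to 1.03 on the other wild type arrays (gap over range 0.92). The level of SPA2 was -0.67 on wild type replicate 3, against -0.90 to -0.87 on the others (gap over range 0.89). No level of the 8 genes themselves stood apart in this way, but PHYA in the mutant, with 3 usable arrays, was not searched. FHY3 minus FAR1 moved by -0.30 without that array (exact p = 0.14).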

How the results depend on the processing

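No gene of the 8 changed direction with another scaling of the arrays, normexp, the deposited table, either block, or any 1 array left out. The sign turned within a slide for PHYE (0.014 on slide 1) and FAR1 (0.047 on slide 2), and without wild type replicate 1 PHYB minus PHYD was -0.043 (-0.043 to 0.17 with 1 array left out). Past the threshold came PHYA (-0.74 with the replicate block, -0.72 with flagged spots also kept), FHY3 (-0.41 with either block) and PHYD (-0.34 with slide). FHY3 minus FAR1 did not (adjusted p = 0.086 at the lowest, with normexp, -0.32, and without mutant replicate 3, -0.39). In the exact test that is the least that 1 pair alone can reach. The blocks changed no other call among the 8 genes. Leaving out 1 array gave -0.93 to -0.68 for PHYA, -0.50 to -0.31 for FHY3, 0.37 to 0.55 for FHL, and -0.39 to -0.17 for FHY3 minus FAR1, with no call among the 8 genes. In the deposited table, where the median of all features was -0.37, PHYA had -1.06 and FHL 0.12. Of all features 1091 passed, against 715 with median scaling, 94 with normexp, 514 with no filter, 3955 with slide and 3314 with replicate number as a block (3219 with flagged spots kept), 70 in the deposited table, 0 on either slide alone in limma (4486 and 4031 at an unadjusted p under 0.05), and 387 to 1506 with 1 array left out. The share of higher calls was 61.2%, and 79.8% with normexp, 42.9% in the deposited table, 50.5% with slide and 50% with replicate number as a block, and between 57.4% and 72.5% with 1 array left out. The deposited values take off 6.42 on every wild type array and 6.91 on every mutant array (natural log), with no scaling of single arrays. The cause of the shifts in the other settings was not tested. The other probe of a locus could not be tried, as each gene has 1. Keeping the flagged spots, or leaving out those with a flagged background, was chosen after seeing the data, and so was the slide contrast.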
